A study of Mus musculus with 20 samples.

Results

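The epiblast-like cells (EpiLCs) of 5 male mouse lines were described before any doxycycline was given, on the 10 arrays that the labels place at 36 h of EpiLC differentiation, out of 20 arrays in the series. Each line had 2 arrays, which the series' design text calls biological duplicates. The Parental clone (BVSCR26rtTA embryonic stem cells, strain C57BL/6;129) carries Blimp1-mVenus and stella-ECFP reporters and Rosa26-rtTA, the activator that needs doxycycline. All 5 lines share these 3 elements, so the control clone is itself a reporter line. The other lines add piggyBac transgenes driven by tetOx8-mCMV, each followed by IRES-beta geo. B (clone #2-4) carries Avi-Blimp1, P14 (clone #7-109) carries 3xFLAG-Prdm14, A (clone #8-2) carries V5-Tfap2c, and BP14A (clone #3-3) carries these 3 transgenes together. Embryonic stem cells had been kept in 2i and LIF and moved to culture without feeders before differentiation. The other 10 arrays hold the same 5 lines on day 1, after 24 h as aggregates in GK15 medium with 1.5 µg/ml doxycycline, and they serve here as a second set of arrays of the same clones. Each line is 1 clone, so a difference between lines cannot be told apart from the clone's own history, its transgene insertions and its transgene.

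EpiLCs are a culture state reached from naive embryonic stem cells with activin, FGF and serum replacement. They resemble the epiblast shortly after implantation, when cells lose the naive network of Klf, Esrrb and Tfcp2l1 genes, keep Pou5f1 and Sox2, and gain Fgf5, Otx2, Pou3f1 and the de novo DNA methyltransferases. The state is short-lived and is competent to form primordial germ cell-like cells, either with BMP signalling or when Blimp1, Prdm14 and Tfap2c are forced on. The transgenic lines are the starting material of that second route, so the question put to these arrays was how alike they are before the factors are induced.

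Signals are log2 values as deposited. Over the 10 EpiLC arrays the array medians lay between 4.65 and 4.72, and 656 to 736 probe sets per array were listed at 0. A gene was tested when the highest of its 10 group means reached 3.95, the 40th percentile of all values, which is called the filter level below. Of 14010 genes tested, 13447 were autosomal. Only these are described, except in the correlations between arrays, which take in all genes tested. A gene was called when its limma p, adjusted by Benjamini-Hochberg over all genes tested, was under 0.05 and its log2 difference was at least 1. Errors of log2 differences are limma standard errors (SE). The number of arrays, 2 per line, limits the precision, and p-values measure the spread between these arrays, which the labels do not tie to separate cultures.

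The 5 lines shared 1 expression state. Of the 13447 autosomal genes, 11267 (83.8%) were at or above the filter level on all 10 arrays. Among those, the range of the 5 line means had a median of 0.22 log2 units, 10273 genes (91.2%) had a range under 0.5, and 42 (0.373%) had a range of at least 1. Across the probe sets of all 14010 genes tested, arrays of the same line correlated at Pearson r of 0.9887 to 0.9919 (5 pairs). Arrays of different lines correlated at 0.9861 to 0.9907 (40 pairs). The 2 ranges overlap. An EpiLC array and a day 1 array of its own line correlated at 0.9483 to 0.9681 (20 pairs), which overlaps neither. Probe sets are not independent replicates, and these correlations are descriptions.

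The label was checked against marker genes. All 11 EpiLC markers were at or above the filter level on all 10 arrays, with ranges of line means between 0.08 and 0.53, and none differed among the lines (lowest adjusted p = 0.335 by limma's F test). Fgf5, the growth factor that marks the post-implantation epiblast, ran from 10.25 through a median of 10.41 to 10.51. Pou3f1 (Oct6), a POU factor of the primed state, ran from 11.98 through 12.16 to 12.28, and Otx2, the homeobox factor that opens epiblast enhancers, from 10.65 through 10.88 to 11.06. The de novo DNA methyltransferase Dnmt3b ran from 13.20 through 13.28 to 13.34 and Dnmt3a from 11.72 to 12.09. The core pluripotency factor Pou5f1 ran from 12.36 through 12.49 to 12.54 and its partner Sox2 from 10.23 through 10.47 to 10.73. Foxd3, Lef1, Zic2 and Utf1 completed the list, and the widest range among all 11, 0.53, belonged to Zic2, which was lowest in P14 at 9.82 and 9.79.

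**Figure D1:**
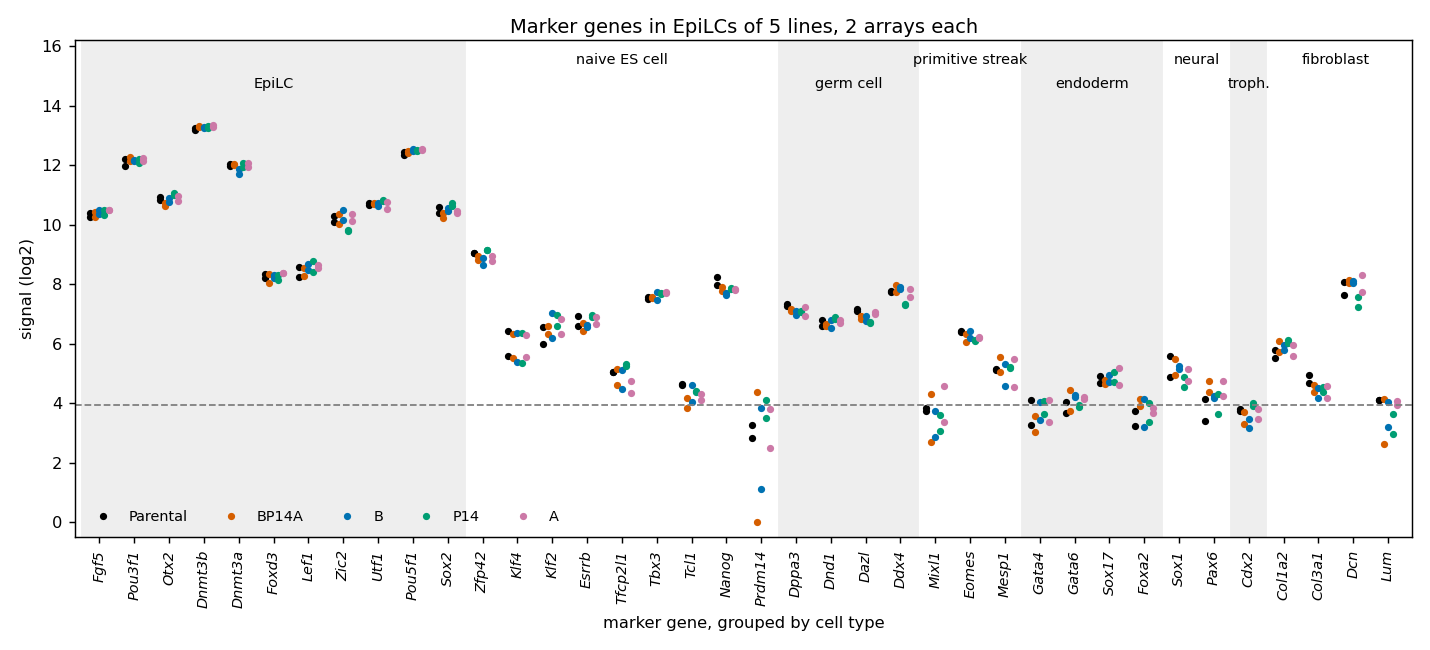
Signal (log2) of the marker genes in the EpiLC arrays, 2 points per line and gene, with genes grouped by the cell type they mark; the dashed line is the filter level of 3.95. The 11 EpiLC markers lie between 8.06 and 13.34 with the 5 lines together, and Tcl1, Prdm14, Mixl1, Gata4, Gata6, Foxa2, Pax6, Cdx2 and Lum reach below the filter level.

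Genes of the naive state were mostly detected, with no called difference among the lines. The series has no embryonic stem cell arrays, so a fall from the naive state was not measured. Of 9 naive markers tested, 7 were at or above the filter level on every EpiLC array, and none was called (lowest adjusted p = 0.411). Nanog, a homeobox factor of pluripotency, ran from 7.63 through 7.85 to 8.25, with the 2 Parental arrays at 8.25 and 7.98 above the other 8. Klf2, a zinc finger factor that sustains the naive network, ran from 6.01 through 6.59 to 7.04. Both genes lay far below all 10 day 1 arrays, where Nanog was between 9.91 and 11.42 and Klf2 between 8.96 and 11.75. Zfp42 (Rex1) ran from 8.65 to 9.15, and Esrrb, an orphan nuclear receptor of the naive network, from 6.44 to 6.98. Tfcp2l1 ran from 4.36 to 5.31 and Tcl1 from 3.83 to 4.64, close to the filter level. Klf4 behaved differently from the rest, in that the array numbered 1 was above the array numbered 2 in every line, by 0.75 in A up to 1.01 in P14. The spread of Klf4 therefore lay within the lines and not between them.

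Markers of other cell types were mostly near the filter level. In the primitive streak list, Eomes ran from 6.06 to 6.45 and Mesp1 from 4.56 to 5.55, whereas Mixl1 was between 2.70 and 4.57. In the endoderm list Sox17 ran from 4.61 to 5.19, and Gata4, Gata6 and Foxa2 between 3.05 and 4.44. The neural genes Sox1 and Pax6 ran from 4.56 to 5.58 and from 3.40 to 4.74, and Cdx2, of the trophectoderm, from 3.16 to 4.00. Among fibroblast genes, Dcn, a collagen-binding proteoglycan, ran from 7.24 to 8.32, Col1a2 from 5.54 to 6.12, Col3a1 from 4.19 to 4.95 and Lum from 2.63 to 4.16, while Col1a1 (0 to 3.79) and Postn (0.43 to 2.99) never reached the filter level and were not tested. The cells had been taken off feeders before induction, per the labels. All 4 germ cell genes tested were above the filter level on all 10 arrays before induction: Dppa3 (stella) ran from 6.95 to 7.35, Dnd1 from 6.53 to 6.91, Dazl from 6.69 to 7.19 and Ddx4 from 7.32 to 7.97. Neither these nor any other marker was called among the lines. T and Nanos3 had no probe set assigned to them alone and were not analysed here.

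The day 1 arrays place the shared state against what came next. Culture, time and doxycycline differ together between the stages and cannot be told apart. The mean of the 5 lines also takes in the factors that doxycycline induces in the 4 transgenic lines. With the 5 lines averaged, 353 autosomal genes were higher in EpiLCs (2.63%) and 497 lower (3.7%). Each line was also compared with its own day 1. The genes called the same way in all 5 lines were 112 higher in EpiLCs (0.833%) and 153 lower (1.14%). Single lines had from 338 higher in A to 639 in BP14A, and from 468 lower in A to 761 in B. The largest differences toward EpiLCs were those of Rpl39l, a ribosomal protein variant of the testis, and Dnmt3l, the cofactor of the de novo methyltransferases. Rpl39l was 3.59 ± 0.10 higher (adjusted p = 4.95e-11), with EpiLC arrays between 8.27 and 8.84 and day 1 arrays between 4.03 and 5.69. Dnmt3l was 3.33 ± 0.12 higher (adjusted p = 3.09e-10), with EpiLC arrays between 8.58 and 9.30 and day 1 arrays between 4.71 and 6.49. The groups did not overlap for either gene. Lrrc2, Ifi35, Nat8f2 and Tdrd12, the last a protein of the piRNA pathway, followed with differences between 3.00 and 3.27. In the other direction stood the neuropeptide precursor Trh, Frem2, Klf2, the water channel Aqp3, Gprc5a and the caudal homeobox gene Nkx1-2, with differences between -4.37 and -3.95. The EpiLC means of Frem2, Aqp3, Gprc5a and Nkx1-2 lay below the filter level. Their differences are thus measured from near background, and their sizes are approximate. Their probe sets were tested through the day 1 signal alone, so their place in this ranking follows in part from the filter. With the filter set on the EpiLC groups only, this Nkx1-2 probe set dropped out. Another probe set then stood for the gene and differed by -0.28.

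Over all autosomal genes tested, 2.63% were called higher in EpiLCs and 3.7% lower, with a median of -0.04. Among gene lists, 7 of 14 genes of later germ cells and meiosis were called higher in EpiLCs and none lower, with a list median of 1.02. They include Rpl39l, Hormad1 (2.83), a protein of the meiotic chromosome axis, and Morc1 (2.70), which represses transposons in the male germ line. For hypoxia and glycolysis 8 of 17 were higher and 1, Slc2a3, lower, with a median of 1.00. For the epiblast list 6 of 20 were higher and 1, Sfrp2, lower, with a median of 0.52 and Pou3f1 the largest at 2.28 ± 0.05 (adjusted p = 5.19e-12). In the DNA methylation list 3 of 11 were higher and none lower, Dnmt3l, Dnmt3a at 1.84 ± 0.12 and Dnmt3b at 1.20 ± 0.05. In the early germ cell list 4 of 11 were lower and none higher. The 4 were Tfap2c, Prdm1, Kit and Dppa3, of which the first pair are transgenes of some lines. The day 1 arrays differed among the lines, as in Dnmt3b, which was at 13.18 and 13.24 in the Parental clone and at 10.08 and 9.66 in BP14A.

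Differences of single lines from the Parental clone were few. Of 13447 autosomal genes, 1 was called in BP14A (0.00744%), 6 in B (0.0446%), 2 in P14 (0.0149%) and 4 in A (0.0297%). At an adjusted p under 0.05 with no limit on size, the counts were 7 in BP14A (0.0521%), 27 in B (0.201%), 6 in P14 (0.0446%) and 5 in A (0.0372%). The median difference over all autosomal genes was -0.01 in BP14A, 0.02 in B, -0.01 in P14 and -0.01 in A. These 4 comparisons share the 2 Parental arrays, and leaving out the first of these raised the counts to 9, 10, 13 and 9, while leaving out the second gave 2, 20, 2 and 3. Without BP14A replicate 2 its count was 6, without P14 replicate 2 it was 5, and without A replicate 2 it was 9. With only the EpiLC arrays in the fit the counts were 0, 1, 2 and 1, namely Jam2 in B, Slc38a4 and Ufsp2 in P14 and Ufsp2 in A. The F test among the 5 lines called 19 autosomal genes whose line means spanned at least 1 (0.141%) and 43 at any size (0.32%).

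**Figure D2:**
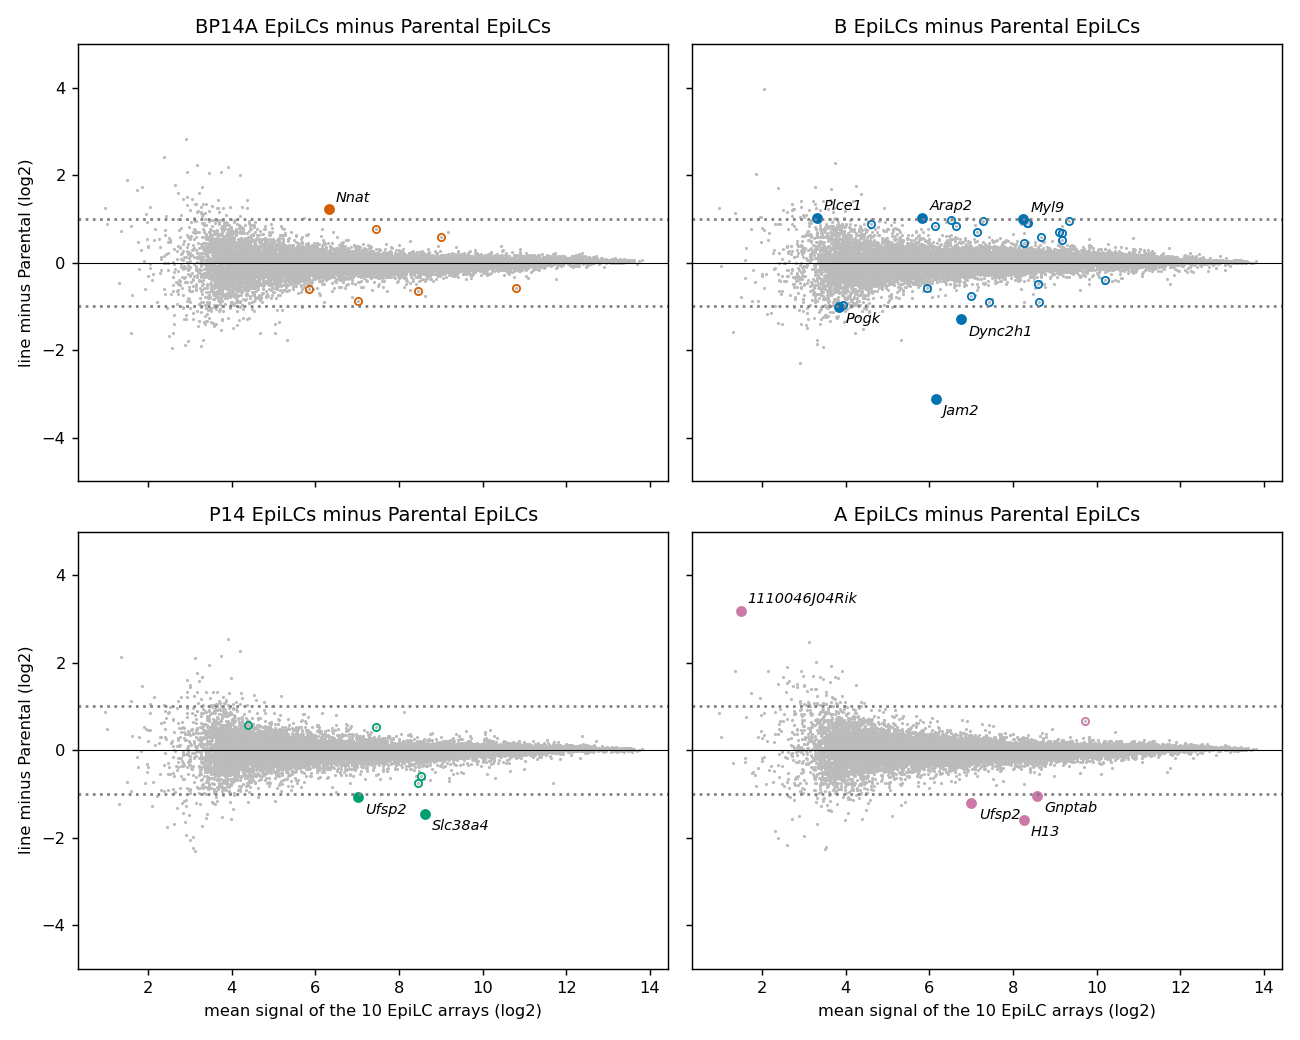
Difference of each transgenic EpiLC line from Parental EpiLCs (log2) against the mean signal of the 10 EpiLC arrays (log2), 1 point per autosomal gene tested. Filled, named points are called (adjusted p under 0.05 and a difference of at least 1, the dotted lines), and open points have an adjusted p under 0.05 with a smaller difference; B has the most, 27 in all, of which 6 are filled.

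In B, the line with the Blimp1 transgene, 3 genes were lower and 3 higher. The largest difference was in Jam2, which encodes an adhesion protein of tight junctions and is also known as a gene of naive embryonic stem cells. Jam2 was at 6.45 and 6.34 in Parental EpiLCs, at 7.11 and 7.22 in BP14A, at 3.68 and 2.88 in B, at 7.41 and 7.09 in P14 and at 6.61 and 6.69 in A. Both B arrays fell below the filter level, and all 8 others lay at least as high as 6.34. The difference of B from Parental was -3.12 ± 0.23 (adjusted p = 3.5e-05), and that of B from the mean of the other 3 transgenic lines was -3.74 ± 0.18 (adjusted p = 4.39e-07). Since B was near background, the size is approximate. The other 4 Jam2 probe sets were dim on every array, at most 4.27, and did not show the difference. With all 5 probe sets averaged, B differed by -0.67 (adjusted p = 0.32). BP14A and P14 were above the mean of their other 3 transgenic lines by 1.44 ± 0.18 and 1.55 ± 0.18, comparisons in which B is one of the lines averaged, and their differences from Parental, 0.77 and 0.85, were not called.

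Dync2h1 encodes the heavy chain of cytoplasmic dynein 2, the motor that returns cargo from the tip of the cilium. It was at 7.06 and 6.49 in Parental, at 6.96 and 7.18 in BP14A, at 5.53 and 5.42 in B, at 7.39 and 7.32 in P14 and at 7.19 and 7.10 in A. The B arrays were the lowest pair, and the other 8 did not reach down to them. B differed from Parental by -1.30 ± 0.14 (adjusted p = 0.00134) and from the mean of the other 3 transgenic lines by -1.72 ± 0.11 (adjusted p = 8.96e-06). Prr3, which encodes a proline-rich protein, was also lowest in B, at 6.52 and 6.47, against 7.45 and 7.36 in Parental, 7.75 and 7.71 in BP14A, 8.07 and 7.81 in P14 and 7.66 and 7.61 in A. Its difference from Parental, -0.91 ± 0.08 (adjusted p = 0.000194), passed the test but not the size limit, while that from the mean of the other 3 transgenic lines was -1.27 ± 0.07 (adjusted p = 6.01e-07). Pogk, a DNA-binding protein with a KRAB domain, differed by -1.02 ± 0.17 (adjusted p = 0.0349), at 3.20 and 3.18 in B against 4.19 and 4.23 in Parental. These values lie near or under the filter level, and with low values raised to that level the difference was -0.26 (adjusted p = 0.44). A second Pogk probe set, at 3.44 to 4.66, put B above Parental by 0.25. Pogk did not pass without either Parental array or either B array, at adjusted p of 0.15, 0.0567, 0.169 and 0.16 without Parental replicate 1, Parental replicate 2, B replicate 1 and B replicate 2.

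The genes higher in B were Myl9, Arap2 and Plce1. Myl9 encodes the regulatory light chain of myosin II. It was at 8.10 and 8.09 in Parental, at 8.13 and 8.09 in BP14A, at 9.16 and 9.04 in B, at 7.98 and 7.67 in P14 and at 8.13 and 8.00 in A. Only the B arrays passed 9, and B exceeded Parental by 1.00 ± 0.11 (adjusted p = 0.00172) and the mean of the other 3 transgenic lines by 1.10 ± 0.09 (adjusted p = 9.14e-05). Without B replicate 1 the difference from Parental was 0.94 (adjusted p = 0.0333), under the size limit. Arap2, a GTPase-activating protein, was at 5.36 and 5.48 in Parental, 6.00 and 5.75 in BP14A, 6.41 and 6.50 in B, 5.74 and 5.63 in P14 and 5.63 and 5.76 in A. Here Parental was the lowest line and B the highest, with a difference of 1.03 ± 0.10 (adjusted p = 0.00071). It fell just under the size limit without Parental replicate 1, at 0.97, and without B replicate 2, at 0.99. Plce1, a phospholipase C, was at 2.62 and 2.70 in Parental, 3.34 and 3.14 in BP14A, 3.45 and 3.93 in B, 3.10 and 3.40 in P14, and 3.70 and 3.74 in A. All 10 arrays lay under the filter level and the gene was tested through its day 1 signal alone. B exceeded Parental by 1.03 ± 0.17 (adjusted p = 0.0352) and A by as much, 1.06 ± 0.17 (adjusted p = 0.117). With low values raised to the filter level the difference of B was 0. Its adjusted p was 0.193 without Parental replicate 1, 0.0531 without Parental replicate 2 and 0.18 without B replicate 2.

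Under the size limit, B held 17 higher and 10 lower genes at an adjusted p under 0.05, counting those above. The next 4 genes, which encode actin-binding proteins, were picked out after their values were seen and stand for no tested group. Cnn1 (calponin 1) was at 7.44 and 7.07 in B against 6.11 to 6.55 on the other 8 arrays, 0.98 ± 0.16 above Parental (adjusted p = 0.0322). Cnn2 was at 10.25 and 9.97 in B against 8.93 to 9.30 elsewhere, 0.95 ± 0.17 above Parental (adjusted p = 0.0499), and Tpm1 (tropomyosin 1) at 9.49 and 9.61 against 8.96 to 9.17, 0.51 ± 0.08 above (adjusted p = 0.0283). The B arrays were the highest pair for each of these 3. The actin gene Actg1 was lower in B than the mean of the other 3 transgenic lines (-0.23 ± 0.04, adjusted p = 0.0421). Tagln (transgelin), at 7.95 and 7.41 in B against 6.46 to 7.13, did not pass (1.03 ± 0.25, adjusted p = 0.152). Tagln is also in the fibroblast or feeder list, of which 0 of 10 tested members were called in B (median 0.21, against 0.02 over all genes). The mean signal of the 4 tested fibroblast markers was 5.66 and 5.31 in B and 5.20 to 5.71 in the other lines. The part of fibroblast RNA in these differences was not tested.

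In the list for p53 and stress, 0 of 16 members were called in B, the median was 0.05 against 0.02 over all genes, and Phlda3 alone passed with no limit on size. Phlda3, a p53 target that restrains Akt, was at 8.91 and 9.13 in B against 7.84 to 8.39 on the other 8 arrays, 0.90 ± 0.14 above Parental (adjusted p = 0.0304). Plk2, a polo-like kinase outside that list, was at 7.88 and 8.20 against 6.90 to 7.38, 0.96 ± 0.17 above Parental (adjusted p = 0.0437). Eif4g3, Lrrc1, Map3k20, Tctn1, Mcam, Sulf2, Ptpn14, Igdcc4 and Mapkapk3 were the other genes higher in B, by 0.45 to 0.90.

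**Figure D3:**
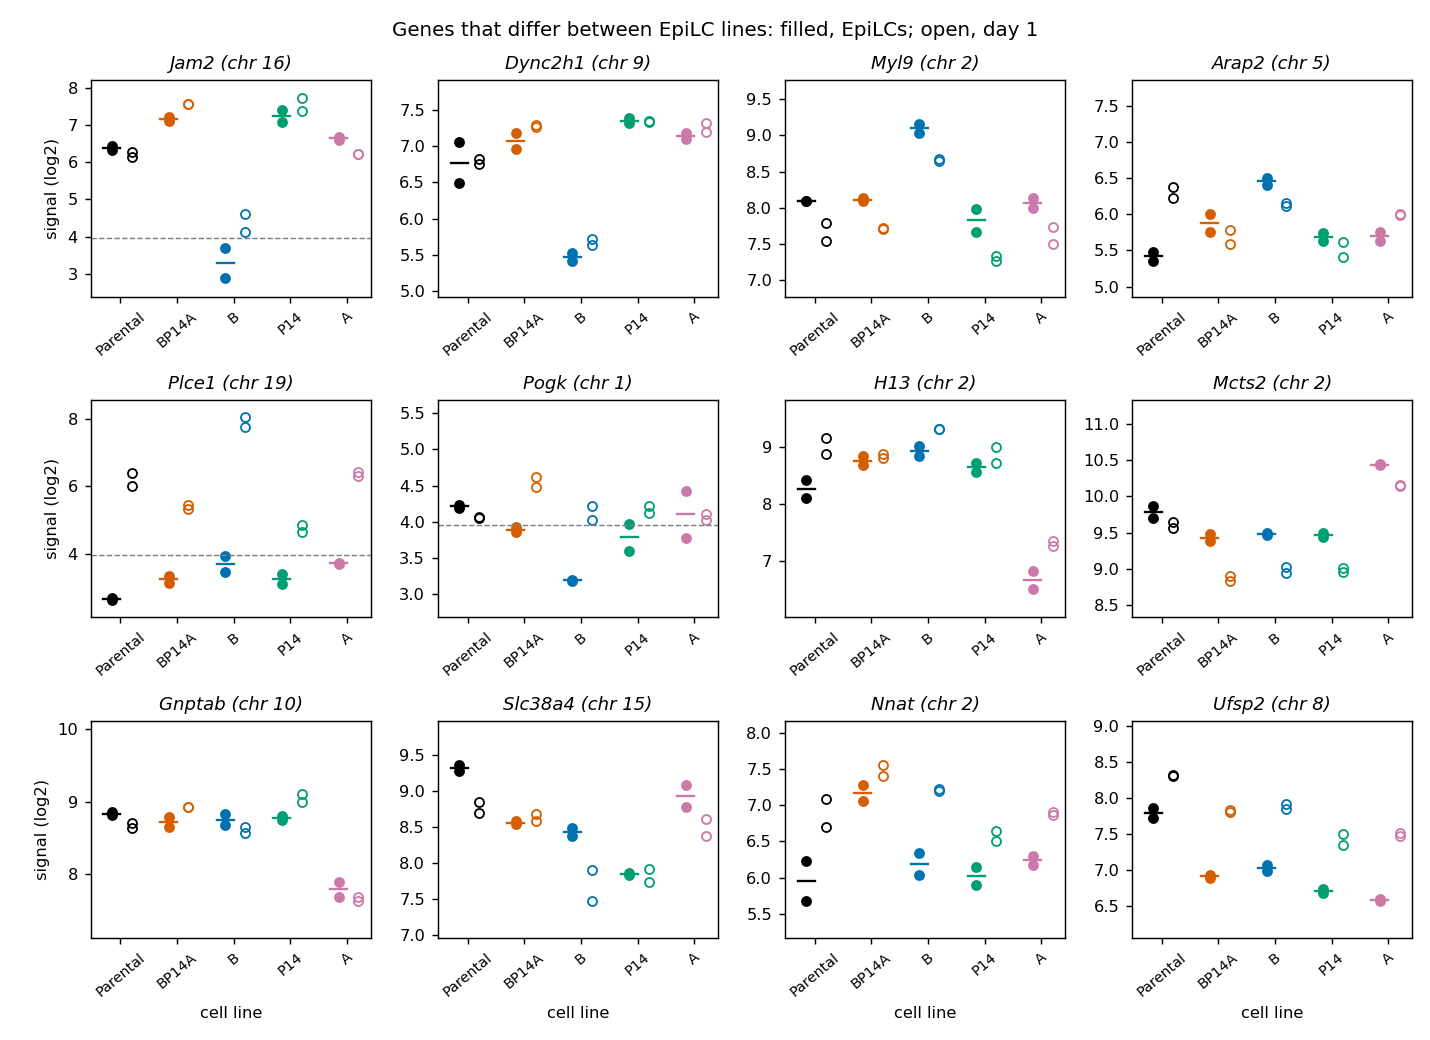
Signal (log2) of 12 genes in each line, with filled points for the 2 EpiLC arrays, a bar at their mean and open points for the 2 day 1 arrays; the dashed line is the filter level of 3.95 where it falls within the panel. Jam2 and Dync2h1 are low in B at both stages, H13 and Gnptab are low and Mcts2 high in A at both stages, and Ufsp2 is highest in the Parental clone at both.

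In A, the line with the Tfap2c transgene, H13, Ufsp2 and Gnptab were lower. H13 encodes signal peptide peptidase, an intramembrane protease, and is known as an imprinted gene, that is, a gene read mainly from 1 parental copy. It was at 8.11 and 8.43 in Parental, 8.68 and 8.84 in BP14A, 8.84 and 9.03 in B, 8.73 and 8.56 in P14, and 6.51 and 6.82 in A. The A arrays lay well under the other 8, by -1.60 ± 0.14 against Parental (adjusted p = 0.000621) and by -2.12 ± 0.12 against the mean of the other 3 transgenic lines (adjusted p = 3.45e-06). The other 5 H13 probe sets were dim, at most 5.69, and did not show the difference together, so that with all 6 averaged it was -0.19 (adjusted p = 0.926). Mcts2, a retrocopy that lies inside H13 and is known to be read from the paternal copy alone, went the other way. Mcts2 was at 9.70 and 9.87 in Parental, 9.38 and 9.48 in BP14A, 9.47 and 9.49 in B, 9.44 and 9.50 in P14, and 10.45 and 10.43 in A. The A arrays were the highest pair, 0.66 ± 0.07 above Parental (adjusted p = 0.00212) and 0.98 ± 0.06 above the mean of the other 3 transgenic lines (adjusted p = 3.45e-06). Mcts2 has 1 probe set, and whether it also reads the gene from which Mcts2 was copied was not tested.

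Gnptab encodes subunits of the enzyme that starts the tag by which hydrolases are sent to lysosomes. It was at 8.85 and 8.81 in Parental, 8.65 and 8.79 in BP14A, 8.83 and 8.67 in B, 8.80 and 8.75 in P14, and 7.89 and 7.68 in A. The 8 arrays of the other lines lay between 8.65 and 8.85, and A was lower than Parental by -1.04 ± 0.08 (adjusted p = 0.000287). Without A replicate 2 it differed by -0.94 (adjusted p = 0.00343), under the size limit. The other 2 Gnptab probe sets were instead higher in A, by 0.33 (5.69 and 5.87 against 5.23 to 5.64) and by 0.34 (7.01 and 6.96 against 6.44 to 6.75). The gene's probe sets thus disagreed in direction, and with all averaged A differed by -0.13 (adjusted p = 0.858). The fourth gene called in A was 1110046J04Rik, at 4.22 and 3.71 in A and between 0 and 2.77 elsewhere. Among the EpiLC groups only A reached the filter level, and only just, so there the gene was admitted through the group where it is high. It is named here after its values were seen. The other lines lie at background, so the size is not fixed by the data, and with low values raised to the filter level it was 0.14 (adjusted p = 0.687). The fitted difference of 3.19 ± 0.45 (adjusted p = 0.043) did not pass without either A array or without Parental replicate 2 (adjusted p of 0.326, 0.0571 and 0.107).

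In P14, the line with the Prdm14 transgene, Slc38a4 and Ufsp2 were lower and no gene was higher. Slc38a4, an amino acid transporter that is known to be imprinted, was at 9.36 and 9.27 in Parental, 8.58 and 8.54 in BP14A, 8.49 and 8.37 in B, 7.84 and 7.86 in P14, and 8.78 and 9.08 in A. The 5 pairs did not overlap, with Parental highest and P14 lowest, and P14 differed from Parental by -1.47 ± 0.14 (adjusted p = 0.00063). A second Slc38a4 probe set gave the same order, from 8.39 and 8.49 in Parental to 7.12 and 7.05 in P14. The difference passed at -0.89 ± 0.14 in B (adjusted p = 0.0304), and was -0.76 ± 0.14 in BP14A (adjusted p = 0.133) and -0.39 ± 0.14 in A (adjusted p = 0.558). Itgb8, an integrin subunit, was at 2.93 and 2.87 in P14, under the filter level, against 3.77 to 4.63 on the other 8 arrays. P14 lay -1.45 ± 0.15 from the mean of the other 3 transgenic lines (adjusted p = 0.00194), and its difference from Parental was -0.99 ± 0.19 (adjusted p = 0.15). Its F test, at an adjusted p of 0.0114, did not pass without P14 replicate 1 (0.11) or P14 replicate 2 (0.129).

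Ufsp2 separated the Parental clone from all 4 transgenic lines. It encodes a protease that processes the ubiquitin-like modifier UFM1 and releases it from its targets. It was at 7.86 and 7.72 in Parental, 6.89 and 6.94 in BP14A, 7.08 and 6.99 in B, 6.69 and 6.74 in P14, and 6.57 and 6.60 in A. The 8 transgenic arrays lay between 6.57 and 7.08, all under the lower Parental array. The differences were -0.88 in BP14A (adjusted p = 0.000307), -0.76 in B (adjusted p = 0.000194), -1.07 in P14 (adjusted p = 1.11e-05) and -1.21 in A (adjusted p = 8.36e-06), each ± 0.07. For the mean of the 4 transgenic lines against Parental, no gene reached the size limit (0%), 4 passed at any size (0.0297%) and 1000 had an unadjusted p under 0.05 by limma. The 4 were Ufsp2 (-0.98 ± 0.05, adjusted p = 2.09e-06), Slc38a4 (-0.87 ± 0.11, adjusted p = 0.0103), Ahcyl2 (-0.49 ± 0.06, adjusted p = 0.0063) and Lrrc1 (0.58 ± 0.09, adjusted p = 0.043). Without Parental replicate 1 the count past the size limit was 11, and without Parental replicate 2 or B replicate 2 it was 1. Ahcyl2 was at 8.78 and 8.90 in Parental and was lower in BP14A, at 8.13 and 8.23, and in P14, at 8.10 and 8.07.

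In BP14A, the line with the 3 transgenes, Nnat was the only gene called. Nnat (neuronatin), an imprinted gene that encodes a small membrane protein of the endoplasmic reticulum, was at 5.67 and 6.23 in Parental, 7.06 and 7.28 in BP14A, 6.34 and 6.04 in B, 6.15 and 5.90 in P14, and 6.30 and 6.18 in A. Both BP14A arrays were above all others, by 1.22 ± 0.18 against Parental (adjusted p = 0.0384) and by 1.02 ± 0.15 against the mean of the other 3 transgenic lines (adjusted p = 0.0207). Against Parental it did not pass without Parental replicate 1 (0.94, adjusted p = 0.152), without BP14A replicate 1 (1.33, adjusted p = 0.103) or without BP14A replicate 2 (1.11, adjusted p = 0.194). Nnat lies inside Blcap, whose arrays were at 8.05 and 8.19 in BP14A and at 8.29 and 8.48 in Parental. At any size BP14A also had higher Fam160b2 (0.77 ± 0.10) and Slc39a14, a zinc and iron transporter (0.59 ± 0.08), both with an adjusted p of 0.0166. It had lower Trappc6a (-0.60 ± 0.07, adjusted p = 0.00747), Ahcyl2 (-0.66 ± 0.07, adjusted p = 0.00747) and Col18a1, a basement membrane collagen (-0.57 ± 0.08, adjusted p = 0.0224).

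Each transgenic line was also compared with the mean of the other 3, which leaves the Parental arrays out. Called genes numbered 4 in BP14A (0.0297%), 8 in B (0.0595%), 5 in P14 (0.0372%) and 2 in A (0.0149%). At any size they were 11 (0.0818%), 75 (0.558%), 36 (0.268%) and 7 (0.0521%). Leaving out 1 EpiLC array at a time moved the called counts to 2 to 8, 4 to 15, 0 to 5 and 2 to 8, with 8 in BP14A without its replicate 1, 15 in B without its replicate 2, 0 in P14 without its replicate 1 and 8 in A without its replicate 2. Grin2d, a glutamate receptor subunit, was among them, at 2.59 and 2.85 in BP14A, 4.98 and 4.44 in B and 3.79 to 4.39 elsewhere, all near the filter level. This probe set differed from Parental by -1.27 in BP14A and 0.72 in B. A second, dim Grin2d probe set, at most 3.80, went the other way, by 0.22 and -0.72. For Grin2d the results below are those of the first probe set. By the F test its line means spanned 1.99 (adjusted p = 0.0341), and it did not pass without either BP14A array, either P14 array or B replicate 1 (adjusted p of 0.0638 to 0.155). Star, which moves cholesterol into mitochondria, was called by the F test alone (adjusted p = 0.0481), at 6.89 and 6.91 in A against 5.12 to 6.43 on the other arrays, and without any 1 array of BP14A, B or A its adjusted p lay between 0.0718 and 0.153.

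Before doxycycline, the genes of the 3 factors were low, and none was called between the lines. Prdm1, which encodes Blimp1, ran from 4.18 in Parental to 4.92 in P14, and B, which carries the Blimp1 transgene, was at 4.49 and 4.50. The differences from Parental were -0.02 in BP14A, 0.21 in B, 0.53 in P14 and 0.24 in A. Prdm14 had 1 dim probe set, between 0 and 4.39, with 4.39 and 0 on the 2 arrays of BP14A. The brightest of 3 Tfap2c probe sets was at 5.69 and 5.68 in Parental, 5.27 and 5.26 in BP14A, 5.31 and 5.28 in B, 5.33 and 5.29 in P14, and 5.28 and 5.08 in A. All 4 transgenic lines were thus below Parental, by -0.51 to -0.38, and none of these differences passed the test. The lowest adjusted p of the 3 genes in any line against Parental was 0.302. On day 1 the same Tfap2c probe set was at 5.80 and 6.08 in A, which carries the Tfap2c transgene, against 6.38 and 6.29 in Parental. No source used here says whether these probe sets read the transgenes, so the values bear on the genes' own transcripts at least and may not bear on transgene RNA.

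Gene lists held few called members. In 25 lists with 303 different autosomal members tested, 2 members were called in any line against Parental, Jam2 in B (naive pluripotency) and Nnat in BP14A (neural, imprinted), and the same 2 were called by the F test, 0.66% of the members against 0.141% of all autosomal genes. In the epiblast list 0 of 20 were called in each of the 4 comparisons with Parental, with medians of 0.01, 0.06, 0.06 and 0.07 in BP14A, B, P14 and A. In the core pluripotency list 0 of 15 were called, with medians between 0.06 and 0.10. Nanog was the lowest member in each, at -0.27, -0.44, -0.24 and -0.29. In the cell cycle list 0 of 21 were called (medians between 0.00 and 0.05), and in the cholesterol synthesis list 0 of 11 (0.02 to 0.10). The signalling lists for Nodal (15 members), FGF and ERK (18), BMP (13) and WNT (8) had no called member, and medians between -0.05 and 0.17.

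The hypoxia and glycolysis list had medians of -0.27 in BP14A, -0.36 in B, -0.02 in P14 and -0.27 in A, with 0 of 17 called in each. Ndrg1, a hypoxia-induced gene, was its lowest member in all 4, and its own arrays were at 7.02 and 5.71 in Parental, 4.80 and 4.38 in BP14A, 4.65 and 4.56 in B, 5.95 and 5.85 in P14, and 4.23 and 6.01 in A. The 2 arrays of Parental and of A were far apart, and no difference passed. The list for later germ cells and meiosis had medians of -0.19, -0.23, -0.28 and -0.13 with 0 of 14 called, and its lowest member was Asz1, a piRNA pathway gene, at 5.78 and 6.06 in Parental and at 3.42 to 5.40 in the others. All 4 comparisons share the Parental arrays. In the imprinted list 1 of 28 was called, Nnat. Slc38a4, H13 and Mcts2 were not among its members, and their grouping with Nnat as imprinted genes was made after their values were seen.

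Differences were also summarised by autosome, without a test. Medians of the line-minus-Parental differences over the 342 to 1134 genes of an autosome ran from -0.025 to 0.005 in BP14A, from 0.005 to 0.038 in B, from -0.035 to 0.00 in P14 and from -0.045 to 0.00 in A. An extra copy of an autosome in every cell would shift a 2-copy signal by 0.58 log2 units if signal followed copy number. Copy number was not tested, whether in all or in part of the cells. Chromosome 8 had the lowest median in BP14A, P14 and A, at -0.025, -0.035 and -0.045, and the day 1 arrays gave -0.02, -0.037 and -0.045 for the same chromosome, while chromosome 8 was at 0.015 in B. On day 1 the lowest median was that of chromosome 5 in BP14A (-0.045), 8 in B (-0.007), 3 in P14 (-0.08) and 8 in A. Among the 3 tested genes on either side of each called gene, none was called in that line, and Mcts2 beside H13 in A was the one named above that passed without reaching the size limit. Called genes were on chromosomes 1, 2, 5, 8, 9, 10, 13, 15, 16 and 19, with Nnat, Myl9 and H13 on chromosome 2.

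**Figure D4:**
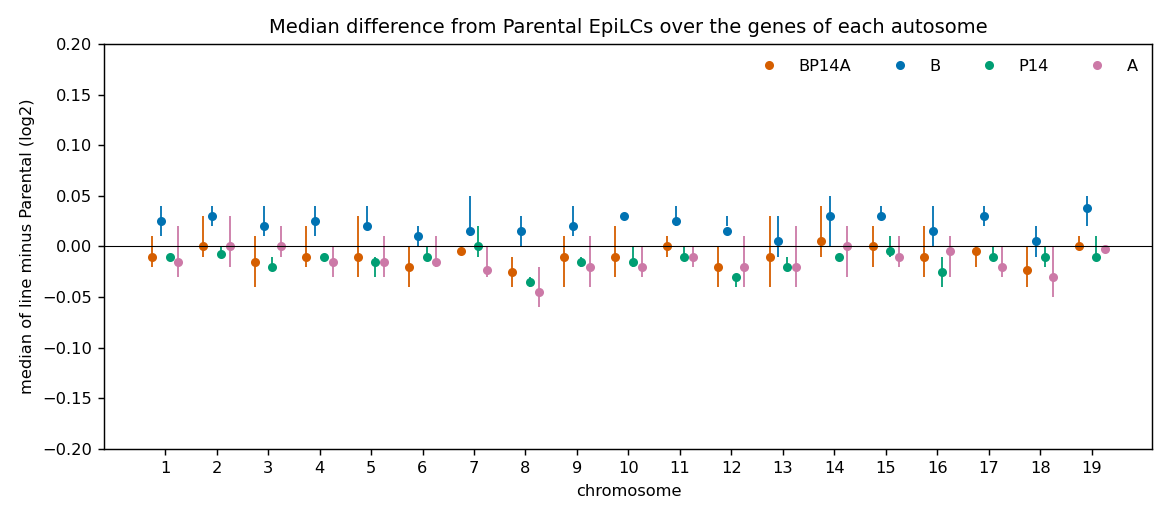
Median difference from Parental EpiLCs (log2) over the genes tested on each of 19 autosomes; points use both arrays of a line and vertical lines run between the medians of its 2 arrays taken alone. All points lie between -0.045 and 0.038, with chromosome 8 lowest in BP14A, P14 and A.

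The day 1 arrays of the same clones gave further measurements of the line differences, with doxycycline. They are not independent of the choice of genes, since both stages entered the filter, the choice of probe set and the estimate of the spread. Of 13 combinations of gene and line called in EpiLCs (12 genes), 11 had the same sign on day 1 and 5 were called there in the same direction. Without Plce1, which was tested only because of its day 1 signal, these were 10 and 4 of 12. The 12 still hold 1110046J04Rik, which among the EpiLC groups reached the filter level in A alone. On day 1, called genes made up 6.51% of autosomal genes in BP14A, 2.53% in B, 5.29% in P14 and 0.0223% in A. H13 in A was at 7.26 and 7.35 on day 1 against 8.73 to 9.33 in the other lines, a difference from Parental of -1.72 ± 0.14 (adjusted p = 0.000292), and Gnptab in A was at 7.62 and 7.68 against 8.56 to 9.11 (-1.02 ± 0.08, adjusted p = 0.000292). Mcts2 in A was again highest, at 10.14 and 10.16 against 8.83 to 9.64. Jam2 in B was at 4.61 and 4.11 on day 1 against 6.15 to 7.72 (-1.85 ± 0.23, adjusted p = 0.000192), Dync2h1 in B was at 5.72 and 5.63 against 6.76 to 7.35 (-1.11 ± 0.14, adjusted p = 0.000249), and Plce1 in B was at 7.76 and 8.05 against 4.65 to 6.41 (1.71 ± 0.17, adjusted p = 4.68e-05). Myl9 in B was 0.99 ± 0.11 above Parental (adjusted p = 0.000115), just under the size limit. Ufsp2 differed from Parental by -0.89 in P14 and -0.82 in A, and the 2 Parental arrays, at 8.30 and 8.32, were above the other 8, at 7.35 to 7.92.

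**Figure D5:**
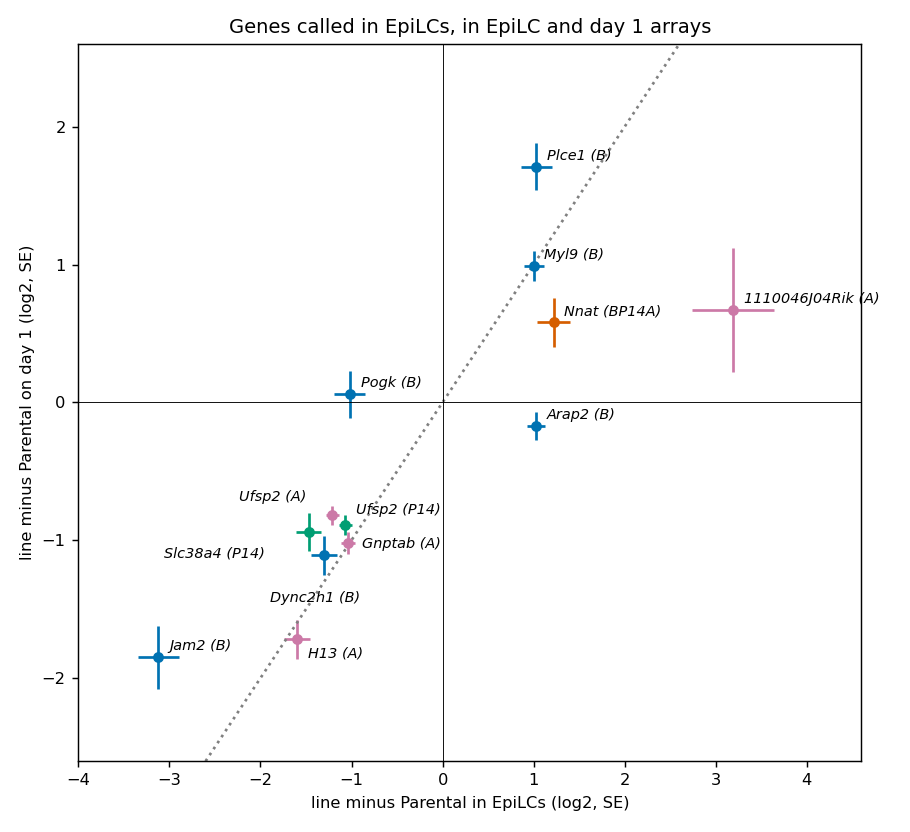
Line-minus-Parental difference on day 1 against that in EpiLCs (both log2, bars are SE) for the 13 combinations of gene and line called in EpiLCs; the dotted line marks equal differences. H13, Gnptab, Dync2h1, Myl9 and Ufsp2 lie near it, and Arap2 and Pogk, both in B, lie near 0 on day 1.

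The difference between stages was tested directly as the line-minus-Parental difference on day 1 less that in EpiLCs. Over all autosomal genes it was called for 6.89% in BP14A, 2.36% in B, 4.44% in P14 and 0% in A. Among the 13 combinations it was called for 3, all in B. The 13 were chosen for their EpiLC differences, which this measure subtracts, so the choice itself favours a move toward 0. Arap2 in B went from 1.03 above Parental to -0.17, a change of -1.21 ± 0.15 (adjusted p = 0.000552), with Parental arrays at 5.36 and 5.48 in EpiLCs and 6.38 and 6.23 on day 1, and B arrays at 6.41 and 6.50 and then 6.16 and 6.11. Jam2 in B came closer to Parental by 1.26 ± 0.32 (adjusted p = 0.0313) and Pogk by 1.08 ± 0.24 (adjusted p = 0.0161). Both genes lay under the filter level in B EpiLCs, so the sizes of these changes are approximate. For the other 10 combinations the difference between stages was not called, with changes between -2.52 and 0.68, the former for 1110046J04Rik.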

How the data were processed

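Total RNA of 10 EpiLC and 10 day 1 samples was hybridised as biotin-labelled cRNA to 1 mouse expression array each, per the labels' protocols. The deposited table holds 1 log2 value per probe set and array. The base was inferred from the values, and no source used here gives the normalization or summarisation, so values were used as the authors deposited them. All sample columns were matched to samples by the labels.

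Of 45037 probe sets that are not controls, the platform annotation gave 34945 to 1 gene, 932 to several and 9160 to none. Entrez identifiers placed genes on chromosomes through RefSeq (GRCm38.p6). Each gene was represented by its probe set with the highest mean over 20 arrays. Genes on sex chromosomes and 78 with no chromosome were tested but not described, apart from their share in the correlations between arrays.

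A linear model with 1 mean per group was fitted to all 20 arrays with limma 3.58.1 in R 4.3.3 (lmFit, contrasts, eBayes). P-values were two-sided, with Benjamini-Hochberg over 14010 genes. The fit was checked on simulated data. The smallest change simulated was larger than most line differences called here, and changes were placed in bright genes only. Small differences and dim genes were thus not covered by the check. Python 3.11.15 and pandas 2.3.3 made the summaries. Replicate numbers were not treated as pairs in the main fit. Deviations of same-numbered arrays correlated weakly, at -0.02 to 0.126 over 10 pairs of lines, with 1 above 0.1 and 9 above 0. Single genes can still share a shift by number, as Klf4 did in every line.

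Named genes are the 10 largest called differences per direction and line (6 for the 4-line mean and for the stages, the 10 widest ranges for the F test), called list members, the factors and the markers, leaving out clone names. Members, lists and tests were chosen with earlier results of these data known. Alternatives changed the arrays fitted, filter, normalization, probe set rule, floor, variance prior, block, threshold and replicates.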

Additional observations from a re-analysis of the deposited data

Results flagged for a closer look

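The line-minus-Parental difference differed between day 1 and EpiLCs, by the test of that difference, for 926 autosomal genes in BP14A, 317 in B and 597 in P14. In A it was called for 0 genes by limma (lowest adjusted p = 0.55, with 629 genes at an unadjusted p under 0.05). Doxycycline was given only on day 1. Among genes that already differed in EpiLCs, the change in B was -1.21 for Arap2, 1.26 for Jam2 and 1.08 for Pogk. Genes chosen for their EpiLC differences are favoured by that choice to move toward 0. In B EpiLCs, Jam2 (3.68 and 2.88) and Pogk (3.20 and 3.18) lay under the filter level, so their changes are approximate.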

How the results depend on the processing

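Groups of 2 arrays and a prior of few degrees of freedom make single calls sensitive to the fit. Slc38a4 and Ufsp2 in P14, Ufsp2 in A, and Slc38a4 and Prr3 by the F test passed under every alternative run. No called difference of a named gene changed sign. Differences of the factors, which were not called, did so for Prdm1 in BP14A and for Prdm14 in BP14A, B and A. That of Prdm14 in BP14A ran from -3.07 to 1.32. Of 271 recomputed counts and medians, 196 stayed within 1.5 times or 1 SD. Fitting the EpiLC arrays alone gave 0 calls in BP14A, 1 in B, 1 in A and 6 by the F test, and 0, 4, 0 and 1 for BP14A, B, P14 and A against the other 3 transgenic lines. Averaging probe sets gave 2 in B, 2 in A, 11 by the F test, and 2, 5 and 1 for BP14A, B and A against the other 3. With no filter on low values BP14A had 2, the 4-line mean 2 and P14 against the other 3 had 2. The 60th percentile filter gave 2, 4 and 2 for BP14A, B and P14 against the other 3, and raising low values to the filter level gave 2, 5, 2 and 1 for BP14A, B, P14 and A. Centring arrays gave 0 in BP14A, 1 for the 4-line mean, 3 for P14 against the other 3, and 0.02 for the autosome median of P14 farthest from 0. Quantile normalization gave 1 for the 4-line mean. A treat test against 0.5 gave 0 in BP14A, 1 in B, 2 in A, 1 for the 4-line mean, 0, 4, 0 and 4 for BP14A, B, P14 and A against the other 3, 109 and 374 for the stage difference in B and P14, and 1587 between stages. With no size limit, an alternative added after seeing the data, counts were 7, 27, 6, 4 for the 4-line mean, 43 by the F test, and 11, 75, 36 and 7 against the other 3.

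The replicate block moved BP14A from 1 call to 0 (Nnat) and left 6 in B, 2 in P14 and 4 in A. By the F test it gave 24 calls in place of 19. Leaving out 1 array at a time, with the lone array assumed to vary like the other groups, gave 1 to 9 calls in BP14A, 7 to 20 in B, 2 to 13 in P14, 3 to 9 in A, 0 to 11 for the 4-line mean, 13 to 27 by the F test, and 2 to 8, 4 to 15, 0 to 5 and 2 to 8 against the other 3. The stage difference gave 862 to 927, 247 to 352, 547 to 593 and 0 to 1 in BP14A, B, P14 and A, and the stages 843 to 860. H13 in A and Dync2h1 in B did not pass with the EpiLC arrays alone. The causes were not tested.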
